A study of Mus musculus with 12 samples.

Results

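Cell cycle genes were followed in cancer cells sorted from mouse lung tumours: 40 genes of the 30743 genes or transcripts in the count table, chosen by symbol as well-known members of the division programme. They comprise 4 regulators of the passage from G1 into S phase (Ccnd1, Ccne1, Ccne2, E2f1), 12 genes of S phase and DNA replication (Cdc6, Cdt1, Mcm2 to Mcm7, Pcna, Rrm2, Tyms, Tk1) and 24 genes of G2 and mitosis (Mki67, Top2a, Foxm1, Ccna2, Ccnb1, Ccnb2, Cdk1, Plk1, Aurka, Aurkb, Bub1, Bub1b, Ttk, Cdc20, Cenpa, Cenpe, Cenpf, Ndc80, Birc5, Kif11, Kif20a, Kif23, Tpx2, Nusap1). All 40 were in the table and all 40 passed the filter on low counts. The choice of symbols used no measured value, but it was made with earlier results of these data known.

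The 12 libraries come from tumours of mice of a mixed BL6/129 strain. Every group carries KT, the shared background, which the labels do not spell out. The reference group is KT alone (4 libraries). KT;Lkb1f/f tumours (3 libraries) carry in addition floxed alleles of Stk11, the gene of the kinase Lkb1. KT;H11LSL-Cas9 tumours carry a Cas9 allele at the H11 locus behind a Cre-dependent stop, and received guide RNAs named sgSik1 (3 libraries) or sgSik1-3 (2 libraries). The labels give both guide sets the same genotype, so they form a Sik-targeted group of 5. Sik kinases are substrates of Lkb1, and the comparisons ask how far the expression changes of Sik targeting and Lkb1 deletion resemble each other. Alternative names call KT replicates 2 to 4 lentiviral Cre tumours and give replicate 1 no such name. No age is stated, nor whether tumours of a group came from separate mice, so p-values measure the spread between these samples. Cas9 acts cell by cell, so a Sik-targeted tumour can hold cells in which a target was not cut. By the titles only the Sik-targeted group carries Cas9 and guides. Effects of Cas9 and of DNA cutting therefore cannot be told apart from those of Sik loss in any comparison with that group.

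A dividing cell first commits to replication in G1, when cyclin D with its kinase partners inactivates the retinoblastoma protein and E2F factors are freed to transcribe replication genes. Those genes peak around the start of S phase. A second wave, driven by the MuvB complex with B-Myb and Foxm1 and by NF-Y at CCAAT boxes, raises the mitotic kinases, kinesins and centromere proteins in G2. In bulk tumour RNA, both waves are read as levels averaged over cycling and resting cells, so more cycling cells and more RNA per cycling cell cannot be told apart.

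Mitotic promoters are known for a pair of short elements, the CCAAT box and the cell cycle homology region (CHR), whereas replication genes carry E2F sites. Promoters of 5 members are shown as examples of the letters in each role group: Mki67, Top2a, Cenpf and Plk1, mitotic genes that rose with Sik targeting, and Mcm6, a replication gene with a positive change that did not pass the test in edgeR. Each is the 250 bases before the gene's start in RefSeq (GRCm38.p6), read 5′ to 3′ along the gene's strand. Capitals mark every match, on either strand, to CCAAT, to the CHR letters TTTGAA or TTCGAA, and to the E2F letters TTTCCCGC, TTTGGCGC, TTTCGCGC or TTTGCCGC. Matches that overlap are run together.
Mki67 (chr7:135716380-135716629, minus strand): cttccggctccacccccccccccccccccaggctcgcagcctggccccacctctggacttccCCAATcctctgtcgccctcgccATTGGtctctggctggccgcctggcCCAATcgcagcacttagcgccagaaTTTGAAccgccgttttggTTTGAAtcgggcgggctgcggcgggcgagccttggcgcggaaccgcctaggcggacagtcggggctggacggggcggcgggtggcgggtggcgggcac
Top2a (chr11:99024190-99024439, minus strand): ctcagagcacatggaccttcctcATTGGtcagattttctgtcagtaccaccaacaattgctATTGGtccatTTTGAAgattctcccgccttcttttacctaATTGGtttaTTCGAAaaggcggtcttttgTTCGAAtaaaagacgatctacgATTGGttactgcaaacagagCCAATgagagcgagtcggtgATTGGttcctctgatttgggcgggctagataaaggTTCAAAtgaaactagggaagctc
Cenpf (chr1:189688087-189688336, minus strand): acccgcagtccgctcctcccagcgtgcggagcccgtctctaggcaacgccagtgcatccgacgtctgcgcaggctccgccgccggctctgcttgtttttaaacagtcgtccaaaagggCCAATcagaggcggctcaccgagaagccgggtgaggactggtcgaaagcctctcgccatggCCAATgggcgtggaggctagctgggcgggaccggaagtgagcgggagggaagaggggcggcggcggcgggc
Plk1 (chr7:122159185-122159434, plus strand): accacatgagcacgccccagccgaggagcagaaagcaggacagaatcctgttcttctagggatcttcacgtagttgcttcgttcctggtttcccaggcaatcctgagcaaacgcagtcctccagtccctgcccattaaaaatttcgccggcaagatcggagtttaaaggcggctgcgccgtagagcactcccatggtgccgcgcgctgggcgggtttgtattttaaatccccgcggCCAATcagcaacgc
Mcm6 (chr1:128359706-128359955, minus strand): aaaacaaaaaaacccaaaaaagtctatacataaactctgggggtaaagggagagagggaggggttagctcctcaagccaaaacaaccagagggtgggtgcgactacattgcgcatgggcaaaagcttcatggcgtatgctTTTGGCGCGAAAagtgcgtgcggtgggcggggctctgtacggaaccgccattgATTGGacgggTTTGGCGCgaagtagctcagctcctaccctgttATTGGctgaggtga
Mki67 held 3 CCAAT matches and 2 CHR matches, the CHR letters lying 116 and 98 bases before the start. Top2a held 6 CCAAT and 4 CHR matches. Cenpf held 2 CCAAT matches and no CHR letters, and Plk1 held 1 CCAAT match. Of the members shown, only Mcm6 held E2F letters, in 3 matches, 2 of them overlapping, beside 2 CCAAT matches.

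Windows were found for 32 of the 40 members (33 windows, since Mcm7 has a pair of starts). Of 19 mitotic windows, 16 held CCAAT (84.2%) and 7 held CHR letters (36.8%), against 33.8% and 17.1% of all 32851 windows of the same length. E2F letters were in 1 mitotic window (5.26%), that of Cdk1, and in 4 of 12 replication windows (33.3%), against 1.86% of all windows. CCAAT was in 8 of the 12 replication windows (66.7%). CHR letters were in 2 (16.7%). CCAAT was found in promoters of mitotic genes that rose, such as the 4 shown, and in those of genes that did not pass the test, such as Ccnb1 with 2 matches. A match is a description of letters and not a bound site.

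Library depth ran from 3847760 to 13955181 counts, of which the 40 members together took 2146 to 15244. A count of 3 equals 0.164 to 0.853 CPM, the usual scaling of counts to a common effective library size, and most mitotic members lie within a few CPM of that floor in KT. KT replicates 2 and 3 stood apart, with counts in 23582 and 23747 genes or transcripts against 14283 to 16533 in the other libraries, among them 1000 and 1066 olfactory and vomeronasal receptor genes against 14 to 58. The 4 most abundant transcripts (AK140265, Rn45s, Malat1 and GU332589) took 18.4% to 48.1% of counts in KT, 44.5% to 56.4% in KT;Lkb1f/f and 36.5% to 74.2% in Sik-targeted libraries. Epithelial markers summed to 1000 to 1390 CPM in KT, 1560 to 2670 in KT;Lkb1f/f and 1890 to 5270 in Sik-targeted libraries. Stk11 was at 44.7, 39.1, 40.9 and 31.0 CPM in KT and at 9.23, 16.6 and 9.92 in KT;Lkb1f/f, without overlap, and at 137, 22.6, 30.1, 32.6 and 59.2 in Sik-targeted libraries. With Sik targeting Sik1 RNA was 4.71-fold higher than in KT (adjusted p = 0.0078), Sik2 2.32-fold higher (adjusted p = 0.0328) and Sik3 lower (log2 -1.33, adjusted p = 0.0209). Guides cut DNA and need not lower the RNA of their target, so these levels do not check the guide labels.

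With Sik targeting 8 mitotic genes and cyclin D1 rose, and no replication gene passed the test in edgeR with all 12 libraries. Between 5 Sik-targeted and 4 KT libraries, 9 of 40 cell cycle genes were higher at an adjusted p under 0.05 and 0 were lower. Of all 13575 genes tested, 5.81% were higher and 6.56% were lower. The 9 were 1 of 4 G1/S regulators (Ccnd1), 0 of 12 replication genes and 8 of 24 mitotic genes (Mki67, Top2a, Foxm1, Plk1, Cenpe, Cenpf, Kif23 and Tpx2). Median log2 changes were 0.01 for the G1/S regulators, 0.75 for the replication genes and 1.57 for the mitotic genes, against -0.03 over all genes tested. Of the mitotic genes 23 of 24 had a positive log2 change, against 48.1% of all genes. Replication genes were positive in 9 of 12, and at an unadjusted p under 0.05 they numbered 4 of 12 and mitotic genes 17 of 24, against 28.5% of all genes. The tests are edgeR quasi-likelihood F tests with Benjamini-Hochberg adjustment over all genes tested, as are all adjusted p given below. Whether the mitotic and replication changes differ was not tested.

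**Figure D1:**
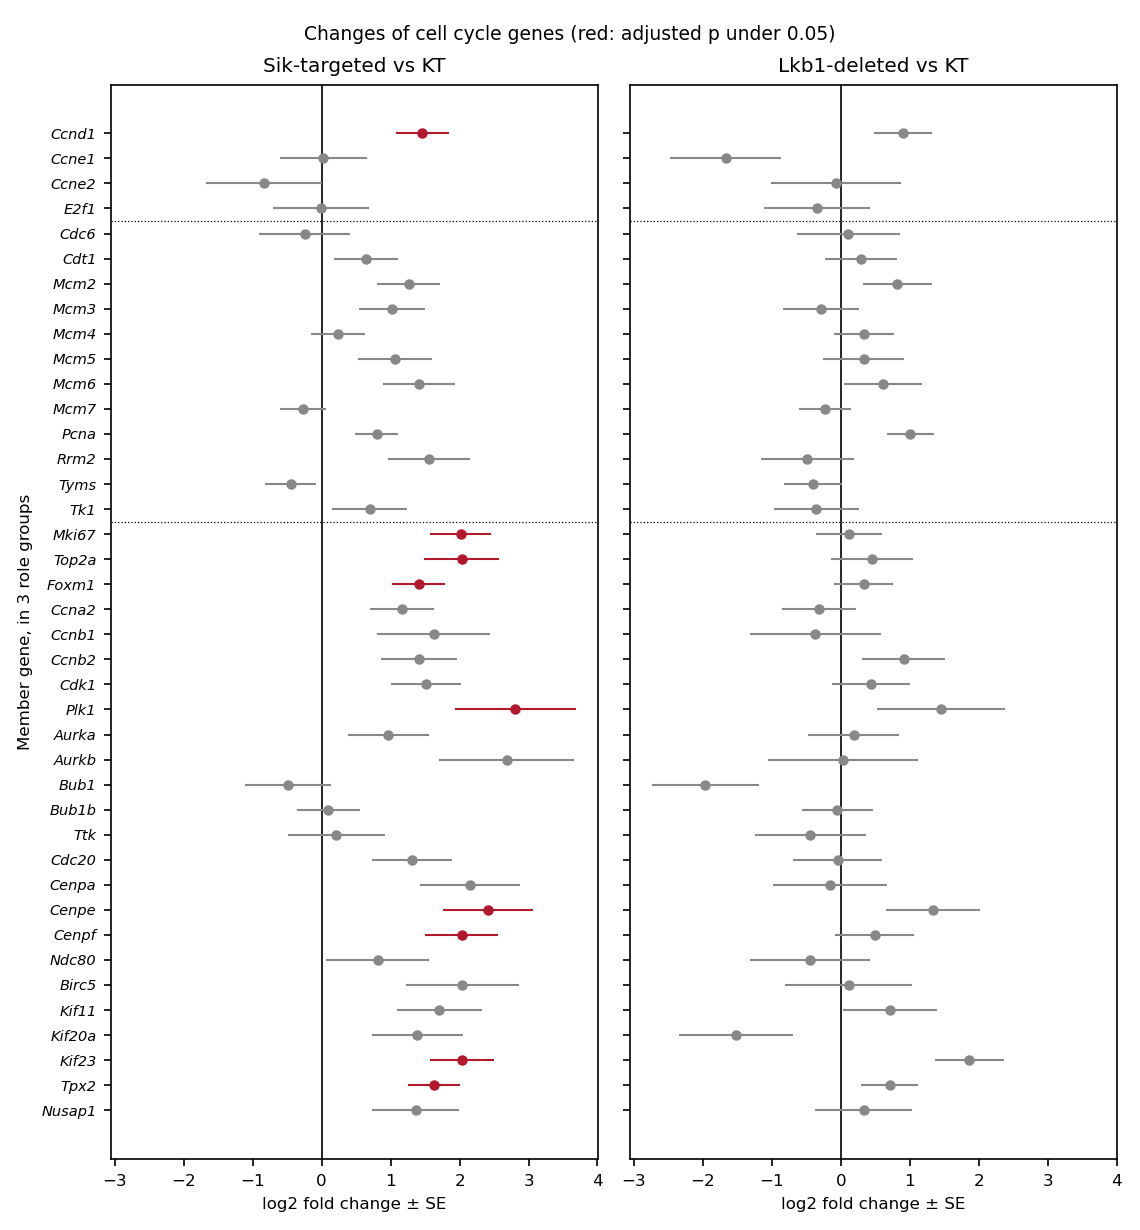
Log2 fold change ± SE of each of the 40 cell cycle genes against KT (horizontal axis), for Sik targeting (left) and Lkb1 deletion (right), with the 3 role groups separated by dotted lines and genes at an adjusted p under 0.05 in red. On the left 8 mitotic genes and Ccnd1 are red and the replication genes are grey; on the right all are grey.

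The count of 9 depends on which libraries are used. It was 1 without KT replicate 2, 3 without replicate 3, 4 without replicate 4 and 0 without replicates 2 and 3 together, where 98 of all genes passed. Without sgSik1-3 replicate 1 it was 4, and without KT;Lkb1f/f replicate 1 it was 14. All genes past the threshold moved as well, from 577 without KT replicate 2 to 2655 without KT;Lkb1f/f replicate 1. With all libraries 1679 passed. The mitotic median stayed between 1.27 and 1.94 on leaving out any single library; the value lacking both KT replicates 2 and 3 was 1.32.

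Among the G1/S regulators, Ccnd1 encodes cyclin D1, the cyclin that couples growth signals to CDK4 and CDK6. It was at 222, 101, 164 and 312 CPM in KT and at 901, 568, 418, 476 and 380 CPM in the Sik-targeted libraries, so every Sik-targeted library lay above every KT library. The rise was 2.75-fold (log2 1.46, SE 0.38, adjusted p = 0.0248). E2f1, an E2F factor that activates replication genes, was at 1.42, 0.893, 2.09 and 4.03 CPM in KT and 3.98, 2.85, 1.80, 0.472 and 1.27 CPM with Sik targeting. Those ranges overlap almost wholly (log2 change -0.004, SE 0.70, adjusted p = 0.998), and the sign of so small a change turns with the setting. Ccne2, a cyclin E, was at 0.944, 1.94, 2.33 and 0.637 CPM in KT and at 0, 1.42, 1.86, 0.472 and 0 CPM with Sik targeting (log2 change -0.83, SE 0.84, adjusted p = 0.555). Ccne1, the other cyclin E, stayed between 0.447 and 1.99 CPM in all 9 of these libraries.

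Of the replication genes, Pcna and Mcm6 separated the groups without passing the test in edgeR with all 12 libraries and the low-count filter. Under 22 alternatives Mcm6 passed in 5, DESeq2 among them (log2 1.4, adjusted p = 0.0437), and Pcna in 1, at an adjusted p of 0.0498. Pcna, the sliding clamp of DNA polymerases, was at 12, 15.3, 10.8 and 8.7 CPM in KT and at 19.0, 16.8, 25.4, 25.0 and 15.9 CPM with Sik targeting (log2 change 0.80, SE 0.31, adjusted p = 0.104). Mcm6, a subunit of the replicative helicase, was at 6.14, 4.62, 4.58 and 5.31 CPM in KT and at 7.96, 17.5, 18, 16.8 and 7.96 CPM (log2 change 1.41, SE 0.52, adjusted p = 0.0861). Mcm4, another subunit, was at 11.2, 6.40, 8.19 and 12.7 CPM against 14.5, 11.2, 9.66, 14.9 and 6.52 CPM (log2 change 0.24, SE 0.39, adjusted p = 0.731). Over the 6 helicase subunits the estimates ran from -0.27 (SE 0.33) for Mcm7 to 1.41 for Mcm6, and differences between subunits were not tested. Rrm2, a subunit of ribonucleotide reductase, had the highest replication value (log2 change 1.55, SE 0.60, adjusted p = 0.1), with 21.3 CPM in sgSik1-3 replicate 1 and 3.98 to 9.72 CPM in the other Sik-targeted libraries. Tyms, which makes thymidylate, had the lowest (-0.45, SE 0.37, adjusted p = 0.456).

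Mki67, the gene of the proliferation antigen Ki-67 that coats mitotic chromosomes, gave the smallest p among the members. It was at 24.1, 7.37, 24.6 and 17.2 CPM in KT and at 40.4, 48.3, 84.4, 130 and 66.2 CPM with Sik targeting. The lowest Sik-targeted library was above the highest KT library, and the rise was 4.04-fold (log2 2.01, SE 0.44, adjusted p = 0.0115). Top2a, the topoisomerase that untangles sister chromatids, went from 11.8, 1.56, 7.23 and 6.79 CPM to 14.5, 21.1, 39.6, 48.2 and 15 CPM, again without overlap (log2 2.03, SE 0.55, adjusted p = 0.0266). Foxm1, a transcription factor of the G2 wave, was at 4.25, 1.86, 4.42 and 3.61 CPM in KT and 10.5, 6.55, 8.57, 13.9 and 7.42 CPM with Sik targeting (log2 1.41, SE 0.38, adjusted p = 0.0279). It did not overlap either, with means of 3.53 ± 1.17 CPM (SD, n = 4) and 9.4 ± 2.94 CPM (SD, n = 5).

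Among motor and spindle genes, Kif23 and Tpx2 separated the groups. Kif23, a kinesin of the central spindle that is needed for cytokinesis, was at 7.08, 7.82, 12.8 and 5.31 CPM in KT and at 26.4, 28.3, 38.5, 43.9 and 33.7 CPM with Sik targeting, so the lowest Sik-targeted library held more than the highest KT library (log2 2.04, SE 0.46, adjusted p = 0.0132). Tpx2, the activator of Aurora A on the spindle, was at 2.67, 2.98, 2.97 and 4.03 CPM in KT and at 8.53, 8.4, 8.13, 11.6 and 12.1 CPM (log2 1.62, SE 0.38, adjusted p = 0.0145). Within each group Tpx2 varied little, with a mean of 3.16 ± 0.596 CPM (SD, n = 4) in KT and 9.75 ± 1.93 CPM (SD, n = 5) with Sik targeting.

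Cenpe, Cenpf and Plk1 passed the test with wider spread. Cenpe, a kinetochore motor that carries chromosomes to the spindle equator, was at 3.93, 3.13, 5.86 and 1.70 CPM in KT and at 5.40, 15.1, 15.7, 50.3 and 12.9 CPM with Sik targeting (log2 2.41, SE 0.65, adjusted p = 0.0263). Its sgSik1 replicate 1 lay inside the KT range and its sgSik1-3 replicate 1 far above the rest; without the latter the change was 1.74 (adjusted p = 0.0686). Cenpf, a large kinetochore protein, was at 6.77, 2.98, 6.58 and 1.27 CPM in KT and at 7.39, 16.4, 17.4, 37.1 and 12.7 CPM (log2 2.03, SE 0.53, adjusted p = 0.0237), with the lowest Sik-targeted library just above the highest KT library; without sgSik1-3 replicate 1 its adjusted p was 0.0588. Plk1, the kinase that acts from mitotic entry to cytokinesis, was at 1.89, 1.12, 1.36 and 0.424 CPM in KT and at 20.7, 5.41, 7.53, 6.14 and 3.80 CPM (log2 2.81, SE 0.88, adjusted p = 0.048). Its groups did not overlap, but the high value was again in 1 library, sgSik1 replicate 1, without which the change was 2.21 (adjusted p = 0.113).

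**Figure D2:**
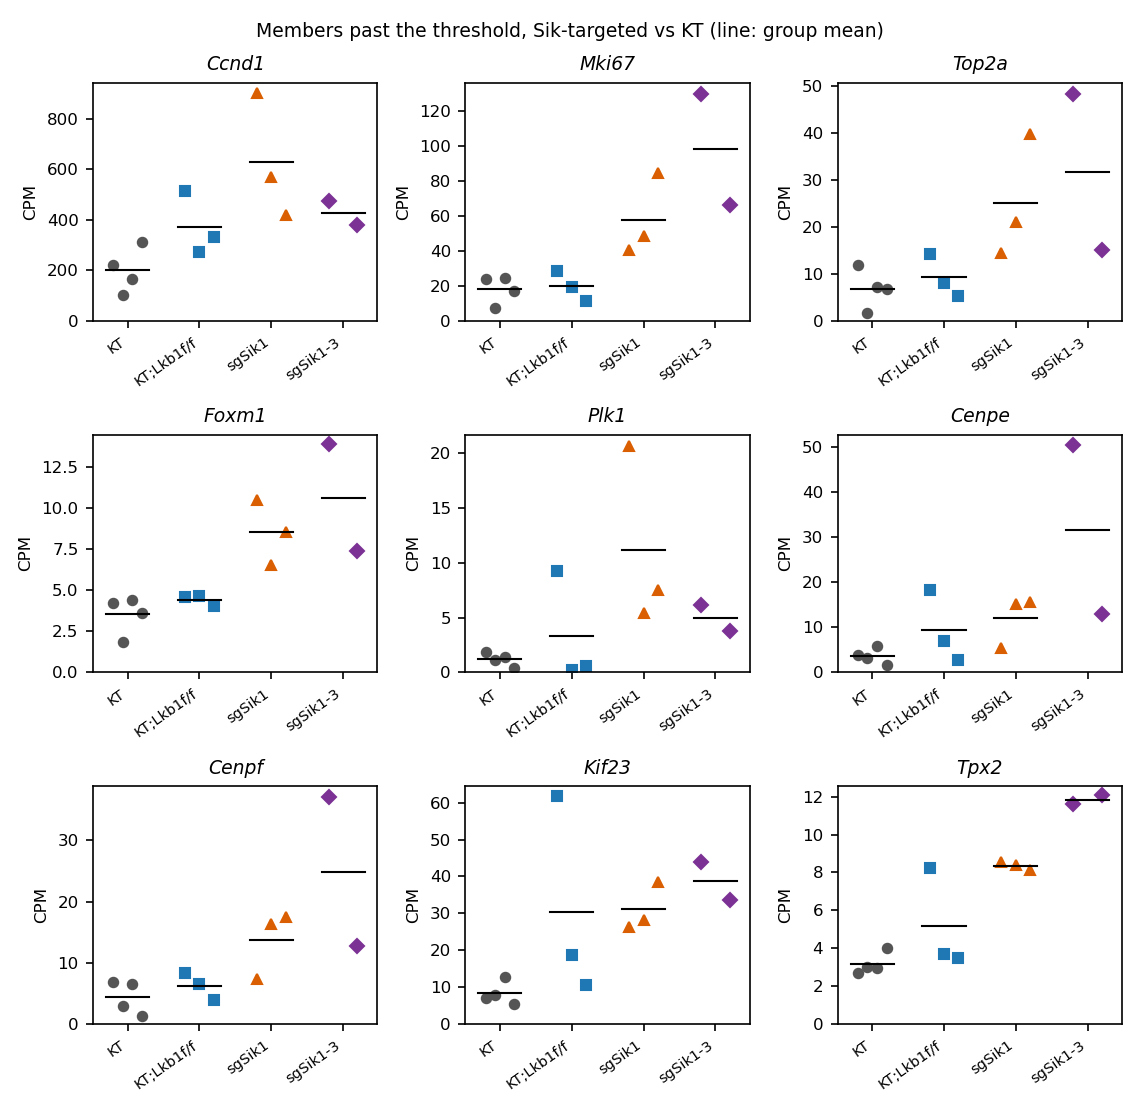
CPM (vertical axis, linear from 0) of the 9 cell cycle genes past the threshold with Sik targeting, 1 point per library in the 4 groups and a line at each group mean. For Mki67, Foxm1 and Tpx2 the 5 sgSik1 and sgSik1-3 libraries lie above all 4 KT libraries, while the high sgSik1-3 mean of Cenpe comes from 1 library at 50.3 CPM.

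Bub1, a kinase of the spindle checkpoint, was the only mitotic gene with a negative change. It was at 3.46, 1.86, 3.05 and 3.82 CPM in KT and at 0.284, 2.14, 2.84, 4.49 and 0.905 CPM with Sik targeting, which overlap (log2 change -0.49, SE 0.62, adjusted p = 0.653). Its checkpoint partners Bub1b and Ttk had the next lowest values among the mitotic genes, 0.10 (SE 0.45) and 0.22 (SE 0.71). The remaining 13 mitotic genes had log2 changes between 0.81 (Ndc80) and 2.68 (Aurkb) and did not pass the threshold. Aurkb, the Aurora kinase of the centromere and midzone, combined a large fold with very few reads: 7, 9, 1 and 2 counts in KT and 24, 15, 71, 22 and 2 counts with Sik targeting (adjusted p = 0.0835). The engine of mitotic entry, Cdk1 and its cyclins, gave 1.52 for Cdk1 (adjusted p = 0.0624), 1.62 for Ccnb1 (0.209), 1.41 for Ccnb2 (0.104) and 1.16 for Ccna2 (0.117).

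In 11 of the 40 genes every Sik-targeted library was above every KT library, and in 0 every one was below; the background is 7.32% and 8.79% of all genes. The 11 were Ccnd1, Mcm6, Pcna and 8 mitotic genes, which include Birc5, the survivin subunit of the Aurora B complex, in place of Cenpe. Without KT replicate 1, which held the highest KT mitotic levels, the count was 21. With fewer libraries any gene separates more easily, and the share of all genes was not counted for that setting.

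Averaged over the 24 genes, the mitotic level on the log2 CPM scale was 1.92, 0.81, 1.52 and 0.90 in KT, 2.24, 1.02 and 0.83 in KT;Lkb1f/f, 2.38, 2.31 and 2.83 in sgSik1, and 3.49 and 2.33 in sgSik1-3. The 5 Sik-targeted libraries were above the 7 others, and KT;Lkb1f/f replicate 1 was next. The replication level was 2.61, 1.85, 2.28 and 2.34 in KT and 3.04, 2.63, 2.98, 3.21 and 2.50 with Sik targeting, so that sgSik1-3 replicate 2 fell inside the KT range. Mitotic minus replication level, a within-library difference, was -0.982 ± 0.34 (SD, n = 4) in KT, -0.997 ± 0.51 (SD, n = 3) in KT;Lkb1f/f and -0.202 ± 0.339 (SD, n = 5) with Sik targeting. Its 5 Sik-targeted values, -0.66, -0.32, -0.14, 0.28 and -0.17, were each above the KT values of -0.69, -1.04, -0.76 and -1.44, and the nearest pair was -0.66 and -0.69. The KT;Lkb1f/f values were -0.41, -1.33 and -1.25, the first of them inside the Sik-targeted range. These averages describe the chosen genes and were not tested.

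**Figure D3:**
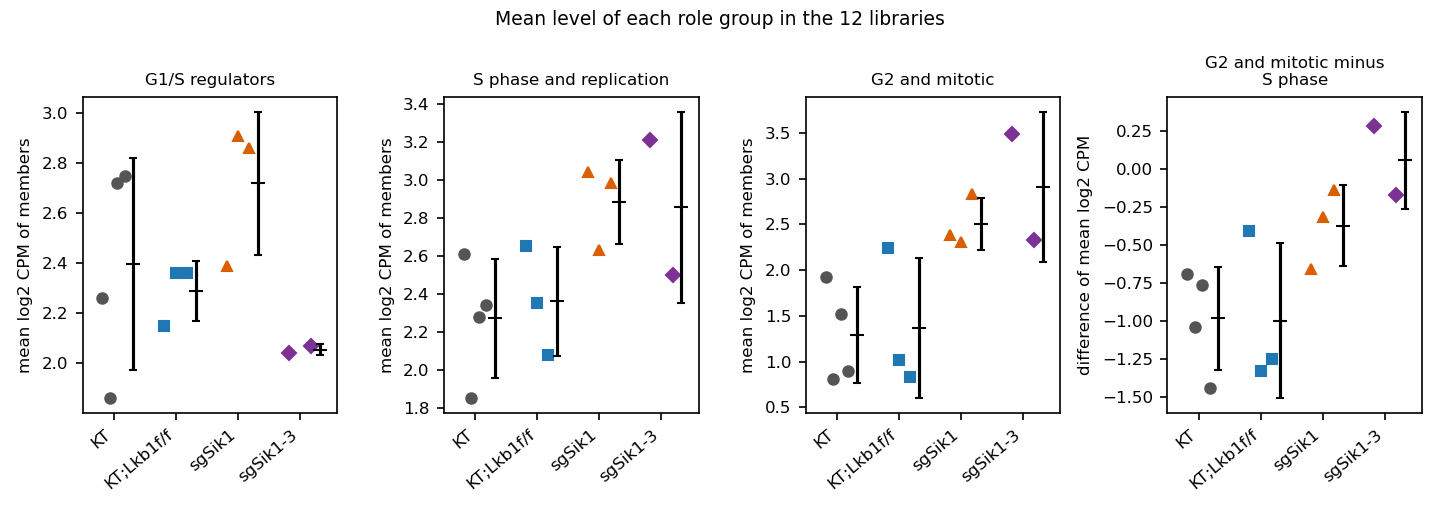
Mean log2 CPM of the G1/S, replication and mitotic genes in each library (first 3 panels) and the mitotic minus replication difference (last panel), with group mean ± SD beside the points; vertical axes do not start at 0. In the mitotic panel the sgSik1 and sgSik1-3 libraries lie between 2.31 and 3.49, above KT at 0.81 to 1.92.

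The 12 libraries differ in how the programme is spread over genes. Library sgSik1-3 replicate 1 held the highest value of 15 of the 24 mitotic genes and 2 of the 12 replication genes. Library sgSik1 replicate 1 held the highest value of 4 replication genes (Cdt1, Mcm2, Mcm3 and Tk1) and 3 mitotic genes (Plk1, Aurkb and Cdc20, the activator of the anaphase ligase). Libraries sgSik1 replicate 2, KT;Lkb1f/f replicate 2 and KT replicates 1 and 2 held the highest value of 0 members. KT replicate 2 was lowest for 10 members, KT;Lkb1f/f replicate 2 for 9 and KT replicate 4 for 7.

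**Figure D4:**
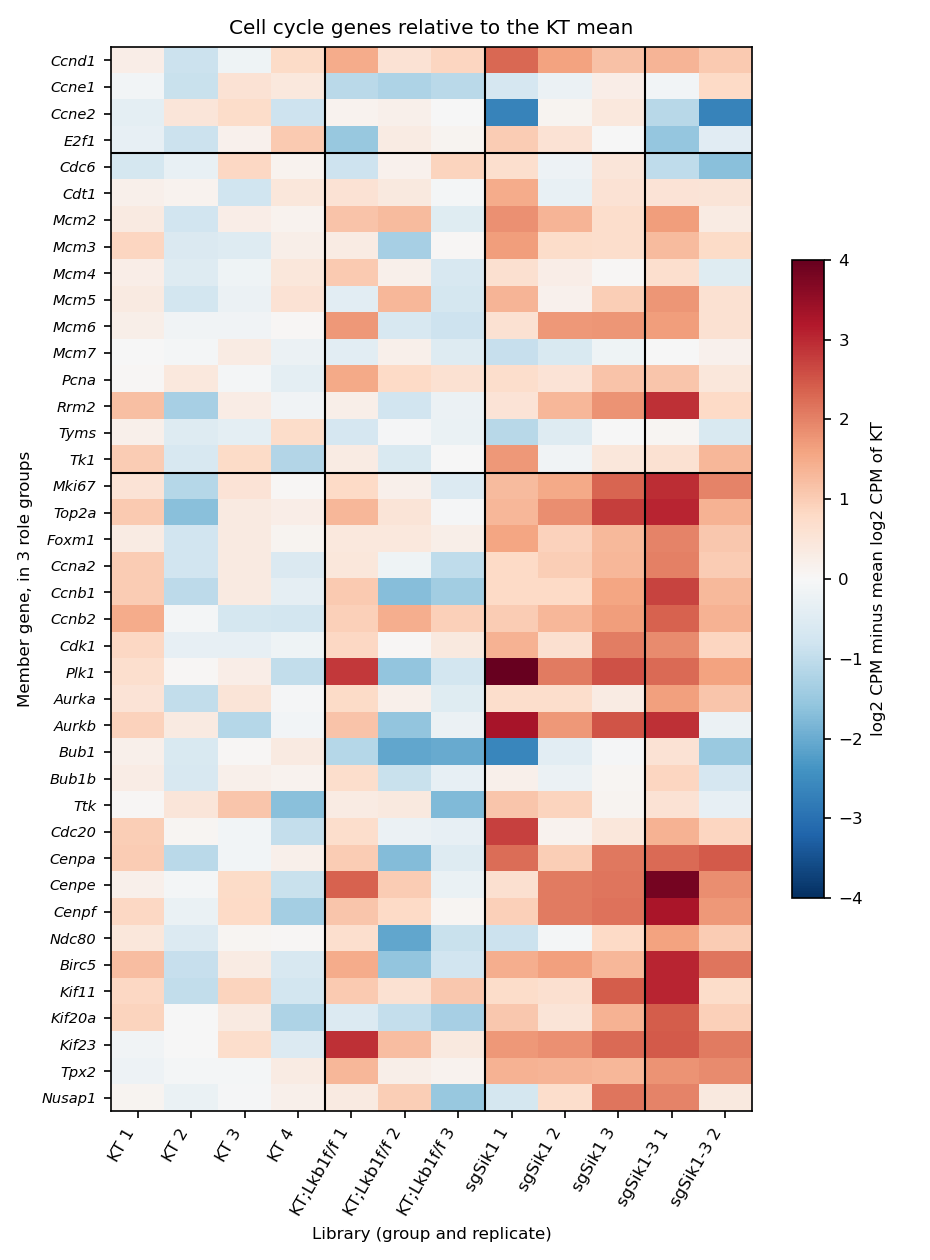
Log2 CPM of each cell cycle gene (rows, in 3 role groups) in each library (columns) minus its mean over the 4 KT libraries, red above and blue below that mean. The mitotic rows are mostly red in the 5 sgSik1 and sgSik1-3 columns, most strongly in sgSik1-3 replicate 1, while Bub1 is blue in the 3 KT;Lkb1f/f columns.

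With Lkb1 deletion 23 of 40 cell cycle genes had a positive log2 change and 17 a negative one, against 47.7% positive among all genes. In edgeR 0 of 40 passed at an adjusted p under 0.05, against 1.16% of all genes (158 of 13575; 0.611% higher and 0.552% lower), and 4 of 40 had an unadjusted p under 0.05, against 13.1% of all genes. DESeq2 called 1 member, for which no share of all genes is given here. With so small a share of all genes passing in edgeR, 0 of 40 says little about the members. Median log2 changes were -0.21 for the G1/S regulators, 0.20 for the replication genes and 0.15 for the mitotic genes, against -0.04 over all genes. Of the mitotic genes 15 were positive and 9 negative. On leaving out any single library the mitotic median ran from -0.355 to 0.444, so a joint change stayed unsettled. These values use the same 4 KT libraries as the comparison of Sik targeting.

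The 4 smallest p-values belonged to Kif23, Pcna, Bub1 and Ccnd1. Kif23 was at 61.7, 18.6 and 10.5 CPM in KT;Lkb1f/f against 5.31 to 12.8 in KT, so replicate 3 lay inside the KT range (log2 change 1.86, SE 0.50, adjusted p = 0.0963). Without that replicate its adjusted p was 0.0438, and in DESeq2 with all libraries 0.0179. Pcna was at 33.4, 20.2 and 17.4 CPM, all above the KT values of 8.7 to 15.3 (log2 change 1.01, SE 0.35, adjusted p = 0.192). Bub1 was at 1.21, 0.514 and 0.551 CPM, all below the KT values of 1.86 to 3.82, on 10, 5 and 3 counts (log2 change -1.96, SE 0.77, adjusted p = 0.271). Ccnd1 was at 512, 274 and 332 CPM, with replicate 2 inside the KT range of 101 to 312 (log2 change 0.90, SE 0.42, adjusted p = 0.372).

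The other mitotic genes that rose with Sik targeting did not pass the test in KT;Lkb1f/f. Mki67 was at 28.7, 19.1 and 11.4 CPM (log2 change 0.11, SE 0.48), Top2a at 14.3, 8.13 and 5.33 CPM (0.46, SE 0.59) and Foxm1 at 4.62, 4.63 and 4.04 CPM (0.33, SE 0.42). Cenpf was at 8.26, 6.58 and 3.86 CPM (0.49, SE 0.57) and Tpx2 at 8.26, 3.70 and 3.49 CPM (0.71, SE 0.41). Cenpe was at 18.3, 7 and 2.75 CPM (1.34, SE 0.69), and Plk1 at 9.23, 0.206 and 0.551 CPM (1.45, SE 0.93). In all of these except Foxm1 replicate 1 was the highest of the group, and for Plk1 it alone carried the value: without it the change was -1.75. The same library turned Mki67 to -0.24, Mcm4 to -0.18 and Mcm6 to -0.77 when left out, and the mitotic median to -0.36. Mcm6 stood at 17.6 CPM in replicate 1 and at 3.19 and 2.75 in the others, Mcm4 at 19.4, 10.8 and 5.88. E2f1 (0.486, 2.37 and 2.02 CPM) overlapped KT with 1 library below its range, and Ccne2 (1.46, 1.54 and 1.29 CPM) lay inside it.

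Groups were separated from KT without overlap in 1 member upward (Pcna) and 2 downward (Ccne1 and Bub1), against 6.38% and 8.3% of all genes. Upward there were 6 without KT;Lkb1f/f replicate 3, a setting for which the share of all genes was not counted. Ccne1 was at 0.364, 0.309 and 0.367 CPM in KT;Lkb1f/f, which is 3, 3 and 2 counts, against 0.447 to 1.69 CPM in KT.

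Set directly against each other, Lkb1-deleted and Sik-targeted tumours gave 0 cell cycle genes past the threshold in edgeR, where 0.221% of all genes passed (0.103% higher and 0.118% lower with Lkb1 deletion). DESeq2 called 2 members lower in Lkb1-deleted tumours, for which no share of all genes is given here. In edgeR 13 of 40 had an unadjusted p under 0.05, against 12.7% of all genes. All 24 mitotic genes had a lower estimate in Lkb1-deleted tumours, with a median log2 difference of -1.31 against -0.02 over all genes. For 8 members every Lkb1-deleted library was below every Sik-targeted library and for 0 above (background 2.93% and 2.45%): Ccne1, Mcm3, Rrm2, Mki67, Top2a, Foxm1, Ccna2 and Kif20a. Kif20a, a kinesin of cytokinesis, gave the largest difference (log2 -2.90, SE 0.83, adjusted p = 0.169), at 0.486, 0.309 and 0.184 CPM against 1.99, 1.28, 2.57, 5.43 and 1.81 CPM. Mki67 gave the smallest p (log2 -1.90, SE 0.49, adjusted p = 0.133). Without Lkb1-deleted replicate 1, 6 members passed, all lower with Lkb1 deletion, and 710 of all genes passed.

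Each guide set was also compared with KT on its own. In sgSik1 2 of 40 members were higher, Ccnd1 (log2 1.67, SE 0.42, adjusted p = 0.0371) and Kif23 (1.93, SE 0.51, adjusted p = 0.0445), where 3.84% of 15303 genes tested passed, 2.71% higher and 1.13% lower. In sgSik1-3 5 of 40 were higher, where 2.89% of all genes passed, 1.74% higher and 1.15% lower: Mki67 (2.44, adjusted p = 0.0186), Cenpe (3.10, 0.0283), Cenpf (2.50, 0.0369), Tpx2 (1.93, 0.0374) and Kif23 (2.24, 0.0402). In both the mitotic median exceeded the replication median, 1.41 against 0.79 for sgSik1 and 1.90 against 0.81 for sgSik1-3, with medians of -0.11 and -0.25 over all genes. For sgSik1 the count of 2 was 0 without KT replicate 1, 2 or 3 or sgSik1 replicate 1, 1 without KT replicate 4, sgSik1 replicate 3 or either sgSik1-3 library, 4 without sgSik1 replicate 2 and 7 without KT;Lkb1f/f replicate 1. For sgSik1-3 the count of 5 was 0 without KT replicate 2 or 4 or sgSik1-3 replicate 1, 1 without KT replicate 1 or 3 and 2 without sgSik1-3 replicate 2; where 1 sgSik1-3 library was left, it was assumed to vary like the other groups.

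Between the guide sets 0 of 40 members and 0 of all genes passed in edgeR; in DESeq2 0 members and 6 of all genes did. At an unadjusted p under 0.05 there was 1 member, Cdc6, a loader of the helicase (log2 change of sgSik1-3 against sgSik1 -2.06, SE 0.96), against 3.45% of all genes. The sgSik1 libraries held Cdc6 at 2.84, 1.42 and 2.46 CPM, while the sgSik1-3 libraries held 0.709 and 0.362 CPM on 3 and 2 counts. For Mki67 the difference was 0.76 (SE 0.54) and for Ccnd1 -0.56 (SE 0.51).

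Other genes of the cell cycle, outside the 40, were counted from 6 further lists, to be read against the 5.81% of all genes that were higher with Sik targeting and the 6.56% that were lower. In 5 of the lists, with 6 to 20 genes tested, no more than 1 gene passed in either direction, too few to read against those shares. Of kinetochore, spindle and cytokinesis genes 8 of 40 tested rose with Sik targeting and 0 fell, with a median log2 change of 1.06. Ube2c, the ubiquitin-conjugating enzyme of the anaphase-promoting complex, was at 4.72, 1.86, 1.53 and 2.55 CPM in KT and at 18.2, 8.11, 9.44, 21.5 and 10.1 CPM with Sik targeting (log2 2.35, adjusted p = 0.0101). Cdca3 (2.11, adjusted p = 0.0208), Incenp (2.00, 0.0218) and Anln (1.60, 0.0279), whose proteins serve mitotic entry, the centromere complex and the cleavage furrow, rose as well. Under 22 alternatives the threshold was lost in 1 for Ube2c, 4 for Cdca3, 5 for Incenp and 7 for Anln. Of origin and fork proteins 1 of 20 rose, Lig1, the ligase that joins Okazaki fragments (log2 1.94, adjusted p = 0.0184), and 1 fell, Orc6, a subunit of the origin recognition complex (-1.47, adjusted p = 0.0206), with a median of 0.36. The medians of these lists, 1.06 and 0.36, stand in the same order as those of the mitotic and replication members. Both pairs come from the same libraries, and all lists were chosen with earlier results known, so the shared order is no separate support.

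Among CDK inhibitors 1 of 6 tested rose: Cdkn1a, the gene of p21, was at 88.1, 140, 103 and 201 CPM in KT and at 3150, 334, 618, 254 and 509 CPM with Sik targeting (log2 2.87, SE 0.68, adjusted p = 0.0152). The groups did not overlap, but sgSik1 replicate 1 was far above the rest, and the change was 1.68 at the lowest over the alternatives. In KT;Lkb1f/f Cdkn1a was at 370, 573 and 643 CPM, above all KT libraries without passing the test (log2 1.99, SE 0.70, adjusted p = 0.204). A list of 16 other p53 targets left out Cdkn1a, which was counted with the CDK inhibitors. Of these 16 genes 0 rose and 1 fell, Sesn1 (-1.43, adjusted p = 0.0328). Wee1, the kinase that holds Cdk1 inactive before mitosis, fell from 18.4, 26.1, 21.3 and 31.4 CPM to 3.69, 10.2, 2.84, 4.25 and 6.15 CPM (log2 -2.15, SE 0.40, adjusted p = 0.005), and was at 6.32, 14.1 and 9.55 CPM in KT;Lkb1f/f (-1.28, adjusted p = 0.21). Ccnd2, a second D-type cyclin, rose (2.31, adjusted p = 0.0448), so that 1 of 12 cyclins, CDKs and CDC25 genes was higher and 1 lower. Of 17 RB family and E2F genes 1 rose, E2f8, a repressing E2F (2.70, adjusted p = 0.0246), while the median was -0.04. Several of these calls depend on the setting. Under 22 alternatives the threshold was lost in 13 for Ccnd2, 8 for Sesn1, 7 for E2f8, 4 for Cdkn1a and 1 for Wee1. With Lkb1 deletion 0 genes of the 6 lists passed in edgeR, where 1.16% of all genes passed, so the 0 says little about the lists.

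**Figure D5:**
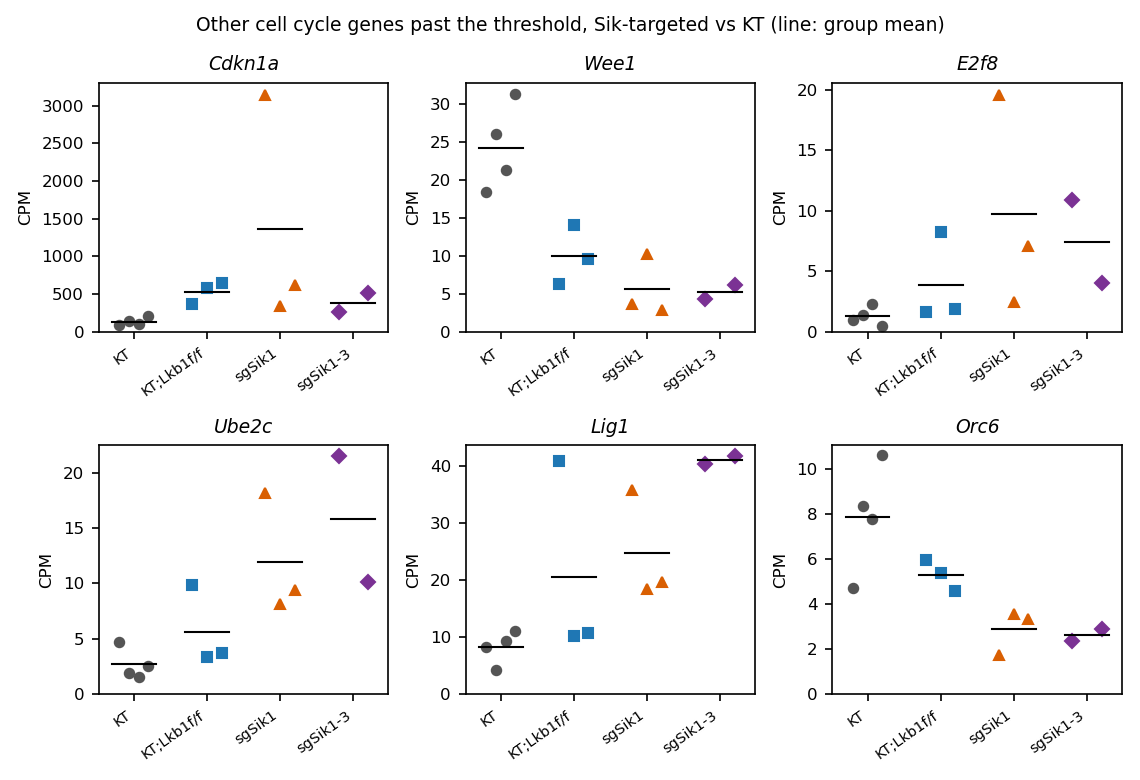
CPM (vertical axis, linear from 0) of 6 cell cycle genes outside the 40 that passed the threshold with Sik targeting, 1 point per library and a line at each group mean. Wee1 and Orc6 lie lower in the sgSik1 and sgSik1-3 libraries than in KT, and the sgSik1 mean of Cdkn1a is set by 1 library at 3150 CPM.

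Markers of other cells moved with the groups beside these changes. Macrophage markers summed to 81.1 to 1100 CPM in KT, 13.1 to 14.9 in KT;Lkb1f/f and 13.2 to 23.9 in Sik-targeted libraries, and 0 to 3 of the 12 markers were at 0 in KT against 4 to 7 in the other libraries. Emr1, Marco and C1qa were all at 0 in KT;Lkb1f/f replicates 1 and 3, sgSik1 replicates 1 and 2 and sgSik1-3 replicate 2. But C1qa was also at 0 in KT replicates 2 and 4, and KT replicate 2 had the highest sum, 1100 CPM. Of 7 macrophage markers tested 5 fell with Sik targeting. Fibroblast and pericyte markers summed to 30.4 to 406 CPM in KT, 2.67 to 438 in KT;Lkb1f/f and 16.7 to 43.1 with Sik targeting, and 2 of 8 fell. T and NK cell markers summed to at most 7.22 CPM in any library, B and plasma cell markers to at most 9.44, erythroid markers to at most 3.65 and endothelial markers to at most 43.6 outside KT;Lkb1f/f, where they reached 216. Leukocyte markers as a whole spanned 165 to 227 CPM in KT, 79.3 to 311 in KT;Lkb1f/f and 98.9 to 311 with Sik targeting. These sums hide changes of single markers. Of 4 leukocyte markers tested 2 fell with Sik targeting (Laptm5 and Ptprc, median log2 change -1.89) and 1 with Lkb1 deletion (Ptprc, median -2). In sgSik1 replicate 2 the sum was 144 CPM although 4 of the 6 markers were at 0. Markers of alveolar type 2 cells summed to 27900 to 97000 CPM in KT, 16000 to 41100 in KT;Lkb1f/f and 10600 to 33900 with Sik targeting. With Sik targeting 4 of these 10 markers fell and 0 rose, while of 10 epithelial markers 4 rose and 0 fell. Genes that respond to tissue dissociation summed to 2590 to 6350 CPM in KT, 15000 to 23100 in KT;Lkb1f/f and 10700 to 30700 with Sik targeting. Of 20 such genes 11 rose with Sik targeting and 8 with Lkb1 deletion, and 0 fell in either. Of all genes 5.81% and 0.611% were higher. The part of these differences in the cell cycle changes was not tested.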

How the data were processed

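RNA was measured in 12 libraries of sorted mouse lung cancer cells, negative for CD45, CD31, F4/80 and Ter119 per the labels' protocols, after amplification of cDNA with the Ovation kit. The deposited values are raw read counts per gene symbol. Per the submitters' processing notes, STAR 2.4.2a, HTSeq and mm10 were used; for the annotation and the use of strand, the answer is not given in the sources used here. Amplified reads carry no molecule tags, so the floor of 3 counts covers counting error only.

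The members and lists were chosen with earlier results of these data known. The test was that of edgeR 4.0.16 (R 4.3.3): TMM normalization, filterByExpr, a robust quasi-likelihood fit, a 2-sided F test and Benjamini-Hochberg adjustment over all genes tested, at 0.05. A fit of 3 genotype groups (13575 genes) and a fit of 4 title groups (15303 genes) each used all 12 libraries. SE is the log2 change over the root of F. CPM use TMM effective sizes, and log2 CPM a prior count of 2. Fitting code was tested on simulated data. No pair of libraries within a group was a duplicate (lowest chi-square per degree of freedom 15.1). Pairs across groups were not checked.

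Members were given library by library if they passed in any comparison, were among the 3 most abundant of their role group, or among the 4 smallest p in either comparison with KT; from other lists, at most 4 genes past the threshold. Further genes named by count, range or motif were chosen after their values were seen. Alternatives used DESeq2 1.42.0, limma 3.58.1, other scalings, no filter and left-out libraries. Promoter windows came from RefSeq (GRCm38.p6); guide sequences were not analysed here.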

Additional observations from a re-analysis of the deposited data

Results flagged for a closer look

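Within groups of 4 or 5 libraries, 70 groups of values were scanned for a library far from the others, and 4 stood out. Chance alone flags about 1 group in 20, a share near that found. All 4 were in Sik-targeted tumours, but only these and KT were scanned. Many scanned genes had been picked because they passed with Sik targeting, so the 4 say little about the tumours. Plk1 was at 20.7 CPM in sgSik1 replicate 1 and at 3.80 to 7.53 in the other 4 libraries. Cdkn1a was at 3150 CPM in the same library and at 254 to 618 in the others. Cenpe was at 50.3 CPM in sgSik1-3 replicate 1 and at 5.40 to 15.7 in the others. Ccnd2 was at 148 CPM in sgSik1 replicate 2 and at 44.9 to 69.9 in the others. Library sgSik1 replicate 1 also had the largest share of counts in the 4 most abundant transcripts, 74.2%.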

How the results depend on the processing

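In the comparison of Sik targeting with KT the count of members past the threshold was 9, and no alternative called a member lower. It was 17 in DESeq2, 15 without the low-count filter and 15 without Lkb1-deleted replicate 1 and sgSik1 replicate 1. Without KT replicates 2 and 3 it was 0. Leaving out 1 library gave 1 to 14, while all genes past the threshold ran from 577 to 2655. Member counts of different settings are therefore not comparable without the count of all genes. For Lkb1 deletion against KT the member count was 1 in DESeq2 and 1 without the filter. On leaving out 1 library it was 0 to 1, with 13 to 242 of all genes. For Lkb1 deletion against Sik targeting it was 2 in DESeq2, 3 without the filter, 6 without the 2 named libraries, and 0 to 6 on leaving out 1 library. For sgSik1 against KT it was 1 with DESeq2 size factors, 0 with upper-quartile scaling, 6 in DESeq2, 5 in limma-voom, 9 without the filter, 5 with only the 2 groups, 0 without KT replicates 2 and 3, 6 without Lkb1-deleted replicate 1 and sgSik1 replicate 1, and 0 to 7 on leaving out 1 library. For sgSik1-3 against KT it was 2 in limma-voom, 9 without the filter, 9 with only the 2 groups, 0 without KT replicates 2 and 3, 11 without Lkb1-deleted replicate 1 and sgSik1 replicate 1, and 0 to 7 on leaving out 1 library. Dropping the filter or libraries changes how many genes or samples enter; for the other settings the cause was not tested.

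Replicate numbers gave no clear pairing of the libraries: over 15 same-numbered pairs r ran from -0.335 to 0.249, with 6 over 0.1, and 3 of 12 libraries correlated best with their own number. The values were taken relative to group means, so the sgSik1-3 libraries mirror each other, at -0.335 and 0.335 with sgSik1 replicate 1. The check therefore cannot exclude a pairing. With the replicate block the count was 4 for Sik targeting, 1 for sgSik1 and 0 for sgSik1-3 against KT, and E2f1 turned to 0.11 for Lkb1 deletion and 0.56 for Sik targeting. Number 4 occurs only in KT, so the block in effect takes KT replicate 4 out. Leaving out that library alone also gave 4 for Sik targeting, so these counts do not measure an effect of pairing.

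Changes of sign touched members that had not passed, and the cause was not tested. For Lkb1 deletion, Mki67 was -0.0034 with upper-quartile scaling, -0.032 without KT replicates 2 and 3 and -0.24 without Lkb1-deleted and sgSik1 replicate 1. Plk1 was -0.072 in limma-voom and -1.76, E2f1 0.10, Mcm4 -0.17 and Mcm6 -0.77 without those 2 libraries. Ccne2 was 0.86 and, for Sik targeting, 0.050, with Mcm4 at -0.10, without KT replicates 2 and 3; E2f1 was 0.10 in limma-voom. On leaving out 1 library the values for Lkb1 deletion ran from -0.24 to 0.40 for Mki67, -1.75 to 2.04 for Plk1, -0.74 to 0.14 for E2f1, -0.31 to 0.22 for Ccne2, -0.18 to 0.67 for Mcm4 and -0.77 to 1.03 for Mcm6, and for Sik targeting from -0.35 to 0.45 for E2f1. Upper-quartile scaling moved the median of all genes by -0.153 for Sik targeting, with 624 higher and 1061 lower calls against 789 and 890. At these depths changes of members with few counts in KT are loosely bounded.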
